A study of Drosophila melanogaster with 3 samples.

Results

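The genes described here encode the integrin adhesion complex, namely the integrin subunits inflated (if), multiple edematous wings (mew) and myospheroid (mys), and the adaptor proteins rhea, Ilk, stck, parvin, Pax and Fit1. They are 9 of the 13945 protein-coding genes of the annotation and were taken by name, as parts of 1 known protein complex. Chromatin bound by Nau, the Drosophila melanogaster member of the MyoD family of basic helix-loop-helix factors, was mapped in whole embryos by immunoprecipitation and sequencing. All 3 biological replicates came from a transgenic line that stably expresses nau with a C-terminal GFP, in embryos of mixed sex collected at 4 to 24 h, and the description names an antibody to GFP although the antibody label names nau. With only this 1 group, genes and regions were set against each other and no condition was compared with another. The labels name no promoter that drives the fusion. Cells without muscle fate contribute to the same chromatin, and strong binding in few cells cannot be told apart from weak binding in many.

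Integrins are pairs of an alpha and a beta subunit that span the membrane and tie the matrix outside the cell to actin inside it. In the fly embryo they hold muscles to tendon cells of the epidermis, where mew, the alpha-PS1 subunit, acts on the tendon side and if, the alpha-PS2 subunit, on the muscle side, each paired with the beta-PS subunit mys. Inside the cell rhea, the talin of the fly, binds the beta tail and actin, and Fit1, a kindlin (fermitin), binds the beta tail too. Ilk (integrin-linked kinase), stck (PINCH) and parvin form a complex at the same sites, and Pax is paxillin, a scaffold of adhesions.

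The deposited lists, 1 per replicate and 1 for the pool of all 3, hold 30000 candidate regions each, and every region carries a summit and a signal value. The IDR list holds the 3767 regions kept by the irreproducible discovery rate, which are the 3767 strongest of the pooled list. Rank 1 is the strongest region of a list. The signal value is the authors' own, its scale is not named, and it served only for ranks inside 1 list. How deeply the libraries were sequenced is not known here. The targeted gene nau held 1 IDR summit, at rank 684 in the IDR list and at ranks 597, 994 and 774 in replicates 1, 2 and 3. This summit lay in an intron, 4288 bp from the nau start and 2542 bp from the nearest start of any protein-coding gene, that of CG10300. Among muscle genes, Mef2 held 9 IDR summits and tin 1, while bap, slou and Mhc held 0.

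Of the 9 integrin adhesion complex genes, 7 held an IDR summit in their window, taken as the gene body plus 2 kb upstream, and Ilk and parvin held none. Over all protein-coding genes the share was 17.9%. Long genes held summits more often, as the share was 9.86% for windows under 5 kb, 18.8% for 5 to 10 kb, 38.7% for 10 to 20 kb, 49.9% for 20 to 40 kb and 61.6% for windows over 40 kb. Among the members, stck, Ilk and parvin have windows under 5 kb, of which only that of stck held a summit. The others are longer, with Fit1 at 5553 bp, mys at 10593 bp, Pax at 27844 bp, rhea at 31409 bp, if at 33246 bp and mew at 46082 bp, and each of these held at least 1. Of the protein-coding genes, 15.3% had the transcription start site (TSS) nearest to some IDR summit, with a TSS shared by several genes given to 1 of them, and the same 7 members did. A summit within 500 bp of a TSS of the gene itself was found for if, mys, Pax and Fit1, and for 10.6% of all protein-coding genes. Chosen with earlier results known and only 9 in number, the members were not tested as a set.

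The 7 genes together held 17 summits, 5 in mew, 4 in Pax, 2 each in if, rhea and Fit1 and 1 each in mys and stck. This was 1.89 summits per member gene on average, against 0.315 per gene over all protein-coding genes. Per 10 kb of window the members held 1.01 summits and all genes 0.354. By class of window length, from under 5 kb to over 40 kb, the mean per gene was 0.116, 0.263, 0.693, 1.15 and 2.11 summits. Per 10 kb of window, the same classes held 0.335, 0.388, 0.495, 0.412 and 0.264. The median IDR rank of the 17 summits was 2391, against 1884 for the whole list, and 7 of the 17 were among the 1883 strongest regions. The IDR list was also filtered by pairs of replicates, which can only lower the count of summits. When both other replicates had to have a summit at most 100 bp away among their 3767 strongest regions, 13 remained without replicate 1, 7 without replicate 2 and 8 without replicate 3. The IDR list as a whole then kept 60.7%, 62.7% and 59.3% of its regions.

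**Figure D1:**
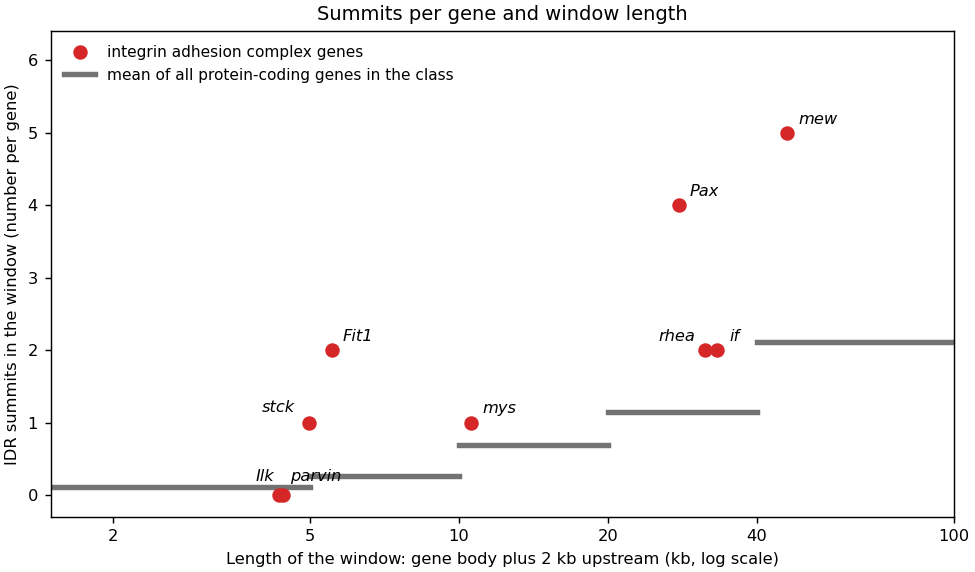
Number of IDR summits per gene (vertical axis) against the length of the gene window in kb on a log scale, with 1 point per integrin adhesion complex gene and grey bars for the mean of all protein-coding genes in each length class. mew with 5 and Pax with 4 summits lie highest, and Ilk and parvin lie at 0 among the shortest windows.

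**Figure D2:**
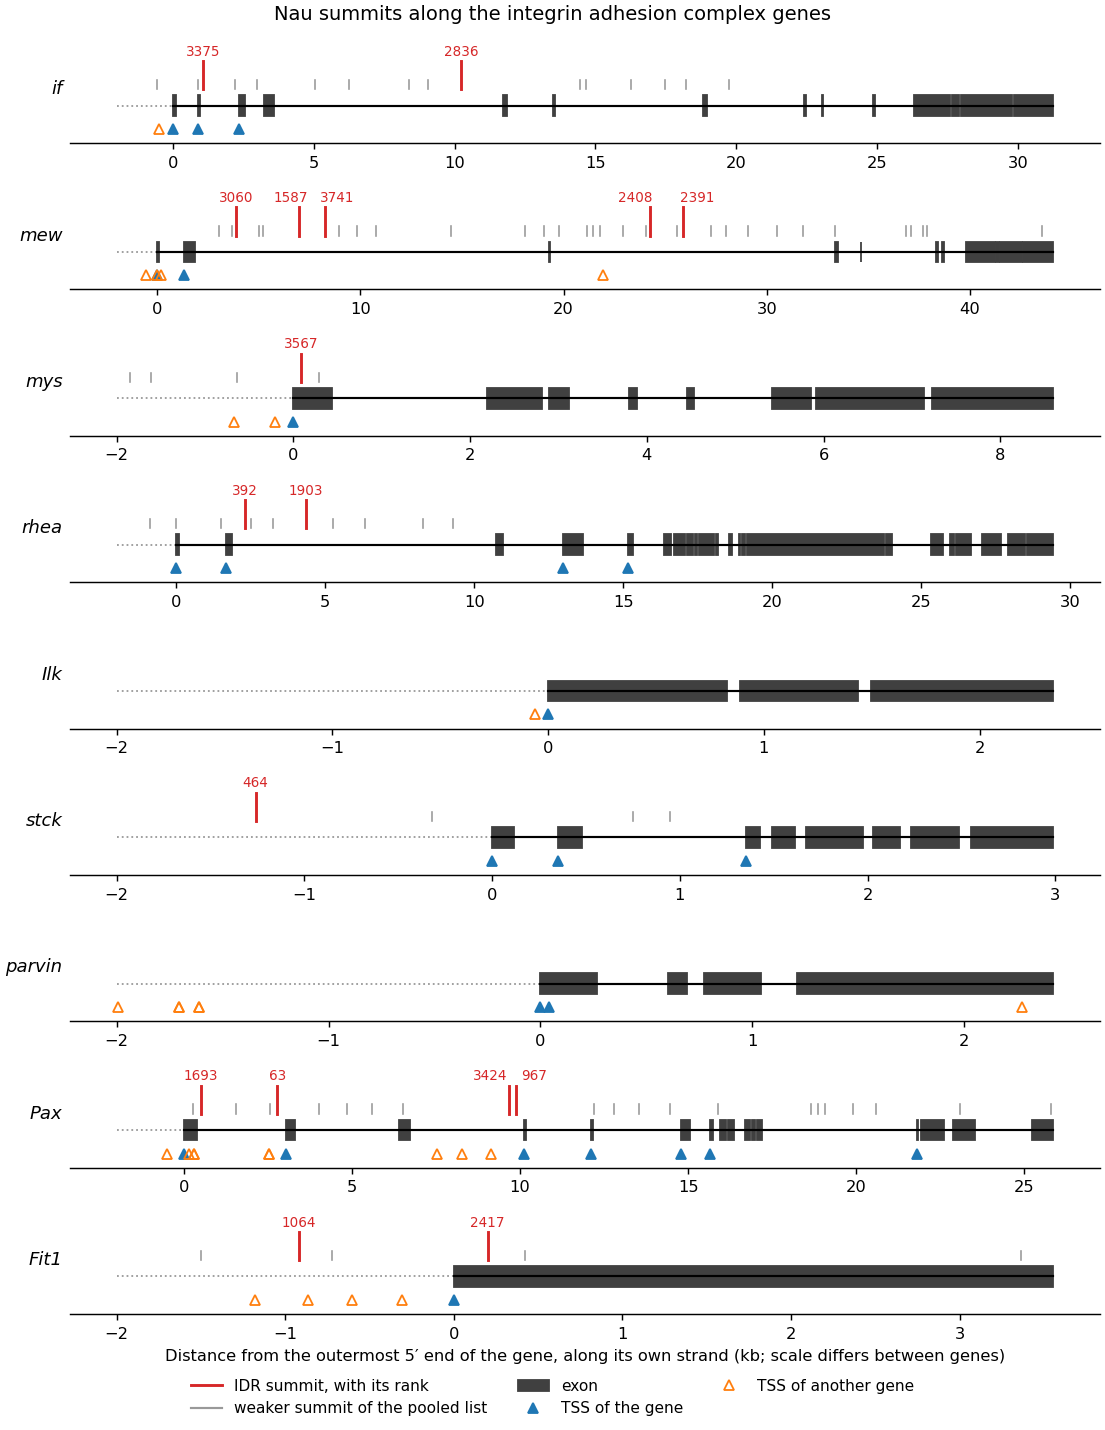
Each row is 1 member gene drawn along its own strand, with distance from its outermost 5′ end in kb, exons as boxes, the 2 kb upstream dotted, IDR summits in red with their rank and weaker summits of the pooled list in grey. Filled triangles mark TSSs of the gene and open ones TSSs of other genes. Of the 17 red marks 13 lie in introns, some far from any TSS of the gene as in mew, and the strongest, rank 63, lies in Pax.

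The integrin subunit genes held 8 of the 17 summits, all on the X chromosome. The strongest of them had rank 1587 in the IDR list. mew (X, 13214409 to 13258490, minus strand) had all of its 5 summits in introns. Its strongest, summit 2 counted along the strand of the gene, lay in the region from 13251427 to 13251553 with a signal value of 268, 5683 bp downstream of the nearest mew TSS. It ranked 1513, 1917 and 2022 in replicates 1, 2 and 3, a mean of 1820 ± 269 (SD, n = 3). All 3 replicates thus placed it inside their 3767 strongest regions. Summit 5, at 13232538 to 13232667 and IDR rank 2391, did so as well, with ranks 2959, 3273 and 2517.

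The remaining mew summits were less even across replicates. Summit 3 (13250003 to 13250462, IDR rank 3741) ranked 17431 in replicate 1, against 3297 and 3313 in replicates 2 and 3. Summit 1 (13254358 to 13254817, rank 3060) ranked 4368, 5478 and 2538, so replicate 3 alone had it among its 3767 strongest. Summit 4 (13234178 to 13234359, rank 2408) ranked 4772, 2325 and 2152, with replicate 1 the low one. Summits 4 and 5 lay 24248 and 25863 bp into mew and were nearest to the TSS of CG32639, a gene inside a mew intron on the same strand, at 2324 and 3939 bp. The mew TSS was 22941 and 24556 bp away from them.

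The windows of 100 bp either side of the mew summits found among the strongest regions of all replicates are printed from the dm6 genome sequence, plus strand, with each E-box (CANNTG, the letters bound by basic helix-loop-helix dimers) in capitals and the summit at base 101. They show where E-boxes lie around places that every replicate ranked highly. The window of summit 2 is chrX:13251400-13251600 and that of summit 5 is chrX:13232527-13232727.
mew summit 2: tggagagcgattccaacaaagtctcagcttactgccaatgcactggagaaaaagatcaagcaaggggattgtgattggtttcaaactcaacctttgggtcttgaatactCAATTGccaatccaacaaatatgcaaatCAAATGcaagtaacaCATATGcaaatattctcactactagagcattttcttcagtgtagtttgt
mew summit 5: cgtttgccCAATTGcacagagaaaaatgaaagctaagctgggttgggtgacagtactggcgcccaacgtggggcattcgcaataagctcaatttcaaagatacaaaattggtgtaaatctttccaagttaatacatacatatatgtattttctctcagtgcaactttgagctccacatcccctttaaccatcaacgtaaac
Summit 2 had 3 E-boxes, centred 11, 39 and 54 bp to the right of the summit, and summit 5 had 1, near the left edge of its window.

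if (X, 16752189 to 16783434, minus strand), the alpha subunit of muscle, held 2 weak summits. Summit 1 lay in an intron at 16782128 to 16782587 (IDR rank 3375, signal value 177), 187 bp downstream of an if TSS, and it also lay in the window of the mitochondrial ribosomal protein gene mRpL22, whose TSS was 1575 bp away. Its ranks were 3364, 2646 and 5072, a mean of 3690 ± 1250 (SD, n = 3). Summit 2, at 16772963 to 16773422 and rank 2836, lay 7881 bp from the nearest TSS, that of if, and ranked 4649, 3856 and 4309. It was the only one of the 17 that no replicate had among its 3767 strongest regions within 100 bp. The strongest summit in the if window differed in place between replicates, at 10394 bp into the gene in replicate 1, 1071 bp in replicate 2 and 5025 bp in replicate 3, with ranks 2382, 2646 and 3526. The replicate 1 region (16772822 to 16773257) overlapped that of summit 2. Matched by overlap of at least 50% of the IDR region, summit 2 ranked 2382, 3856 and 4309.

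mys (X, 8061645 to 8070237, plus strand), the beta subunit shared by both receptors, held 1 summit in its 5′ UTR, 85 bp downstream of its only annotated TSS. The region spanned 8061500 to 8061959, with IDR rank 3567 and a signal value of 172. Ranks in replicates 1, 2 and 3 were 4490, 3457 and 3236, a mean of 3730 ± 669 (SD, n = 3), so replicate 1 had it outside its 3767 strongest. The gene fs(1)h, a bromodomain protein gene on the minus strand, starts 294 bp from this summit. In replicate 1 the strongest summit in the mys window lay 34 bp from a further fs(1)h TSS, at rank 4160, rather than at the mys TSS.

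Among the adaptor genes were the strongest member summits. rhea (3L, 8545001 to 8574409, plus strand) held 2, both in the intron after the exon that starts at its second TSS. Summit 1, at 8547109 to 8547523, had IDR rank 392 and a signal value of 560, and lay 620 bp downstream of a rhea TSS, which was the nearest TSS of any protein-coding gene. It ranked 650, 389 and 312, a mean of 450 ± 177 (SD, n = 3), and was among the 3767 strongest of each replicate. This rests on matching by summit distance. When the strongest replicate region that covered at least 50% of the IDR region was taken instead, the ranks were 9120, 6273 and 312. Their mean was 5240 ± 4490 (SD, n = 3), and by this rule only replicate 3 had it among its strongest. The regions at ranks 650 and 389 in replicates 1 and 2 (8547162 to 8547283 and 8547178 to 8547335) lie inside the IDR region. They are too narrow to cover 50% of it, so this rule passed them over. Summit 2, at 8549127 to 8549586 and IDR rank 1903, ranked 4974, 1230 and 2103, with replicate 1 the low one. The nearest TSS of another gene, that of ergic53, was 12318 bp from summit 1. A further rhea summit fell just short of the IDR list, at rank 3775 of the pooled list and 156 bp from a rhea TSS, with a signal value of 166, the value of the last IDR region.

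stck (3R, 8356978 to 8359964, plus strand) is the PINCH gene, and its single summit lay upstream. The region at 8355563 to 8355890 had IDR rank 464 and a signal value of 507, and its summit was 1260 bp upstream of the stck TSS, again the nearest of any protein-coding gene. Its ranks of 525, 602 and 402 gave a mean of 510 ± 101 (SD, n = 3). Matched by overlap, as for rhea, it had ranks 602 and 402 in replicates 2 and 3, and no region of replicate 1 met the rule. The replicate 1 region at rank 525 (8355654 to 8355815) lies inside the IDR region but is too narrow for this rule. With a window of 1 kb upstream in place of 2 kb, stck had no summit. Its partners Ilk (3L, 21216901 to 21219240, plus strand) and parvin (X, 19746041 to 19748458, plus strand) had no summit in the pooled list of 30000. Of genes with windows under 5 kb, 30.2% had one there. parvin had none in any replicate list either. Ilk had none in replicates 1 and 3, and in replicate 2 its strongest was at rank 4475, 58 bp from the Ilk TSS, with a signal value of 54.1.

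The strongest windows of rhea and stck are shown because they rank highest among members with no other gene's TSS nearer than their own. In the same form as for mew, that of rhea summit 1 is chr3L:8547195-8547395 and that of stck summit 1 is chr3R:8355618-8355818, both plus strand.
rhea summit 1: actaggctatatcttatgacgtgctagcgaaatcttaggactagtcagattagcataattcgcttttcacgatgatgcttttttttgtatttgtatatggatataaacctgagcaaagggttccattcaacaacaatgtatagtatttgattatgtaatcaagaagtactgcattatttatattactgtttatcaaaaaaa
stck summit 1: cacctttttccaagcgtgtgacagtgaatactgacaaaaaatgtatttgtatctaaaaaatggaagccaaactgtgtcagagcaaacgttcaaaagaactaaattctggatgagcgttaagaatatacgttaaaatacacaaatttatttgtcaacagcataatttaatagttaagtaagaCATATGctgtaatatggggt
The rhea window held no E-box, and the stck window held 1, CATATG, centred 83 bp from the summit.

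Pax (2L, 19400753 to 19426596, minus strand) held the strongest summit of all members. Summit 2, in an intron at 19423533 to 19424088, had IDR rank 63 and a signal value of 1080, and it ranked 57, 77 and 83 in the replicates, a mean of 72.3 ± 13.6 (SD, n = 3). It lay between TSSs that point away from each other, 233 bp upstream of a TSS shared by CG13085 and the alkaline phosphatase gene Alp12 on the plus strand, and 265 bp upstream of an internal TSS of Pax. These distances differ by 32 bp, while the summits of the replicates lay 11, 55 and 22 bp to the left of the IDR summit. By the replicates' own strongest summits the nearest TSS was that of Alp12 in replicate 1 and that of Pax in replicates 2 and 3. Which of these promoters the summit belongs to cannot be told from its position.

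Summit 4 of Pax lay at the start of a shorter Pax transcript, 260 bp upstream of an internal TSS found 10126 bp into the gene. Its region at 19416620 to 19416838 had IDR rank 967 and ranks of 1024, 873 and 1091, a mean of 996 ± 112 (SD, n = 3). Summit 3 at 19416826 to 19416993, rank 3424, was 465 bp upstream of the same TSS and 512 bp from that of Lectin-galC1, a lectin gene inside a Pax intron. Both summits also lay in the window of a second lectin gene there, lectin-37Da. The regions of summits 3 and 4 overlap, and they were counted as separate summits. Replicate 1 listed no summit within 100 bp of summit 3, and replicates 2 and 3 ranked it 1237 and 2711. By overlap of at least 50% its rank in replicate 1 was 1024, the same as that of summit 4. Summit 1, at 19425859 to 19426318 and rank 1693, was 209 bp from a TSS that Alp12 and CG13085 share and 507 bp from the first TSS of Pax. Its ranks of 4654, 2444 and 1218 were uneven, with a mean of 2770 ± 1740 (SD, n = 3).

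The Pax windows below carry the strongest member summit and the one at the internal Pax start. They are chr2L:19423717-19423917 for summit 2 and chr2L:19416630-19416830 for summit 4, plus strand.
Pax summit 2: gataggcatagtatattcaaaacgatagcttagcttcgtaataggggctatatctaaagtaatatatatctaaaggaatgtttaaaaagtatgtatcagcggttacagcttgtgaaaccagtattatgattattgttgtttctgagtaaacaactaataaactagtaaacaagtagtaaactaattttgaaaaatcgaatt
Pax summit 4: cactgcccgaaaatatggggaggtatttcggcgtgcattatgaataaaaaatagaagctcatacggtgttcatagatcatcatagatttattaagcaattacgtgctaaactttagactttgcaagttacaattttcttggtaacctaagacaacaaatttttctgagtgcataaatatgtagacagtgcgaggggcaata
Neither window held an E-box, so neither has capitals.

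Fit1 (3L, 4103564 to 4107116, plus strand), the kindlin gene, shares its upstream sequence with CG14995, which runs the other way. Summit 1, at 4102594 to 4102726 with IDR rank 1064 and a signal value of 336, was 919 bp upstream of the Fit1 TSS and only 52 bp from a TSS of CG14995, inside the 5′ UTR of that gene. It ranked 1372, 952 and 1370, a mean of 1230 ± 242 (SD, n = 3), and was among the 3767 strongest of every replicate. Its sequence is not shown because the window lies in that UTR. Summit 2, at 4103535 to 4103994 and rank 2417, lay in the 5′ UTR of Fit1, 201 bp from its TSS. Only replicate 3 listed a summit within 100 bp of it, at rank 2264. Matched by overlap of at least 50% of the IDR region, its ranks were 4525, 3100 and 2264, a mean of 3300 ± 1140 (SD, n = 3). In replicate 1 the strongest Fit1 summit ranked below 3767 was 310 bp from the Fit1 TSS, at rank 4525.

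**Figure D3:**
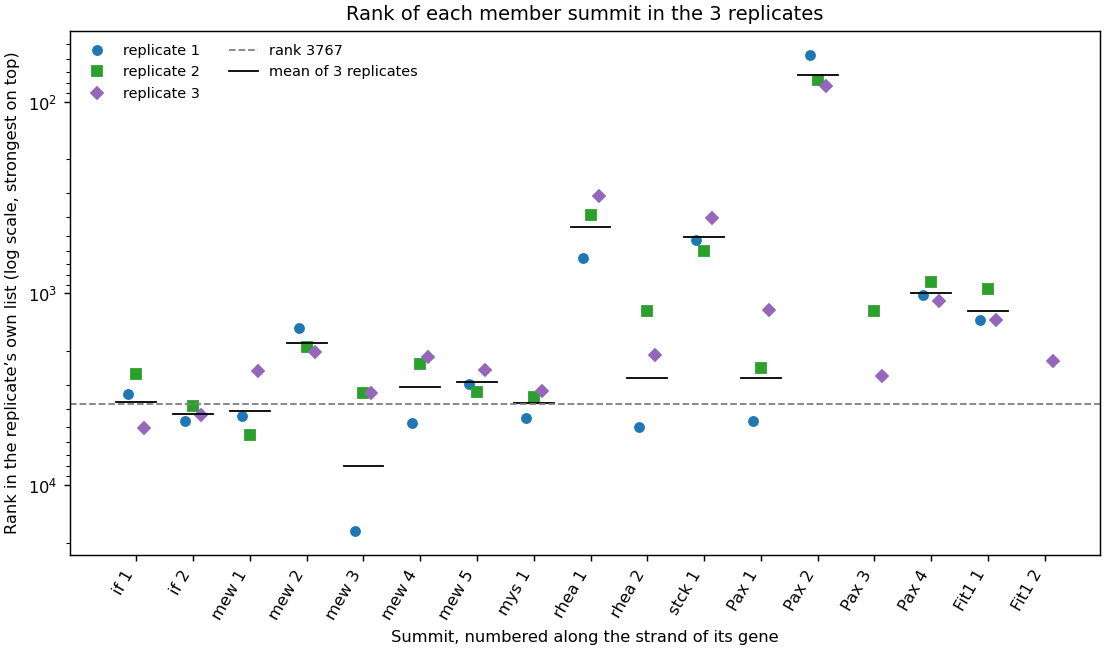
Rank in each replicate's own list (vertical axis, log scale, strongest on top) of the replicate summit within 100 bp of each of the 17 member summits, with bars for the mean where all 3 replicates had one, and a dashed line at rank 3767. Pax summit 2 lies near rank 72.3 in all replicates. Also above the dashed line in every replicate are mew 2, mew 5, rhea 1, stck 1, Pax 4 and Fit1 1. In replicate 1, mew summit 3 falls to rank 17431.

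Across the 17 summits, 15 had a replicate summit within 100 bp in all 3 lists, which is 88.2%, against 87.4% of all IDR regions. In 7 of the 17 (41.2%) the matched region was among the 3767 strongest of every replicate, against 51.5% of all IDR regions. By gene rather than by summit, 6, 7 and 7 of the 9 members had a summit among the 3767 strongest regions of replicates 1, 2 and 3. Over all protein-coding genes the shares were 19.2%, 18.6% and 19.0%. The member that replicate 1 lacked was mys. The median over the 9 members of their best rank was 1513 in replicate 1, 1917 in replicate 2 and 2022 in replicate 3. Of all protein-coding genes, 46.0%, 45.3% and 45.4% had any summit in these lists, so the median gene had no rank.

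Start sites were near many of the member summits. Of the 17, 8 (47.1%) lay within 500 bp of a TSS of some protein-coding gene, against 38.1% of all IDR summits, and the median distance was 620 bp against 1132 bp. These sets are not alike, because the member summits were taken from gene bodies and 2 kb upstream and the IDR list was not restricted in this way. The selection alone can shorten the distance to a TSS. Within the genes, 13 summits were in introns, 2 in 5′ UTRs and 2 upstream. For 12 summits the nearest TSS was one of the member itself. The other 5 were nearest to Alp12 with CG13085 (Pax summits 1 and 2), CG32639 (mew summits 4 and 5) and CG14995 (Fit1 summit 1). With TSSs of all annotated genes counted, including those of transposable elements, mew summits 1, 2 and 3 were nearest to a TART-A element at 642, 2446 and 3713 bp, which left 9 nearest to the member. No 30-base word in the 201 bp windows of the 17 summits occurred elsewhere in the assembly, and 1.46% of all IDR windows held such a repeated word.

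**Figure D4:**
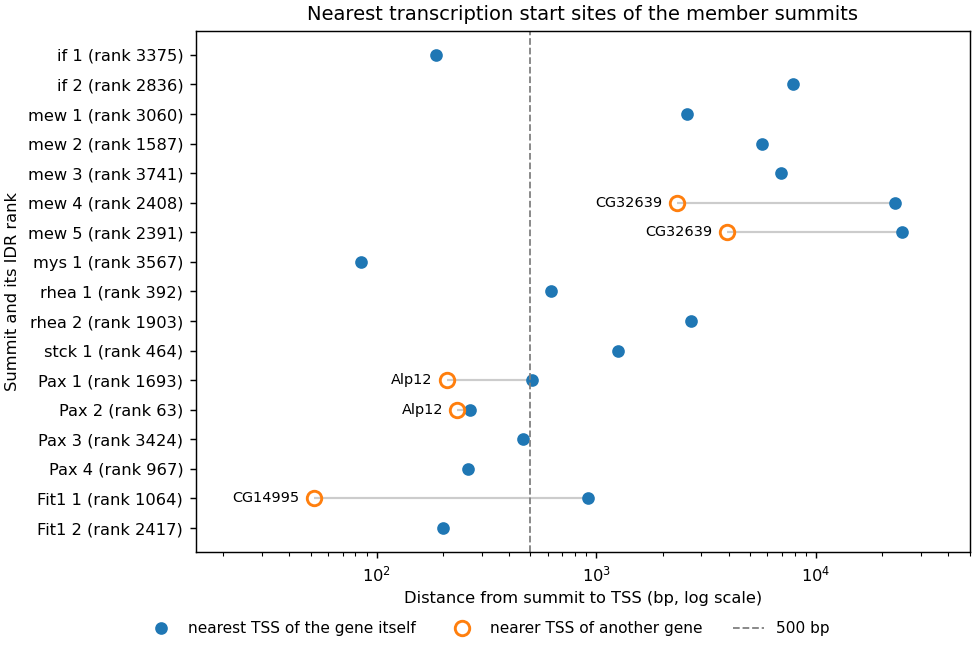
Distance in bp on a log scale from each of the 17 summits to the nearest TSS of its gene (filled circles) and, where another gene is nearer, to that gene's TSS (open circles with the name). The dashed line marks 500 bp. For Pax summit 2 the circles nearly coincide at 233 and 265 bp, and for mew summits 4 and 5 they lie far apart.

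E-boxes were present in most windows, and the count of the form CAGCTG, bound by MyoD, depended on the width searched. Within 100 bp of the summit, 13 of the 17 summits (76.5%) held a CANNTG, against 66.0% of all IDR windows and 63.7% of windows of the same length centred on the outermost TSS of all protein-coding genes. CAGCTG is one of these and reads the same on both strands. It was found at 2 of 17 (11.8%), mew summit 3 at 6 bp to the left and mys summit 1 at 49 bp to the right, against 15.1% of IDR windows and 13.8% of TSS windows. Within 250 bp it was at 6 of 17 (35.3%), against 29.7% of IDR windows, so the share of the members was below that of the IDR list at 100 bp and above it at 250 bp. The 4 windows without any E-box were both of rhea and those of Pax summits 2 and 4, among them the members' strongest ranks of 63 and 392. Of all IDR windows, 34.0% had none. The median GC share was 37.8% for the members and 37.8% for all IDR windows, and it was 28.4% at Pax summit 2 and 30.3% at rhea summit 1.

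Words of other factors were searched in the same windows on both strands. The forkhead word, taken as GTAAACA with the variant GTAAATA and as ATAAACA with the variant ATAAATA, was found at 8 of 17 summits (47.1%), against 40.2% of IDR windows and 29.4% of TSS windows. Pax summit 2 held GTAAACA at 48 and at 67 bp to the right of the summit, both visible in the printed window, and rhea summit 1 held 2 forkhead words at 77 and 89 bp. The GAGA word GAGAG was at 3 summits (17.6%), against 28.0% and 22.5%. The word of Tinman, a heart and muscle factor, TCAAGTG or TTAAGTG, was at 2 (11.8%), if summit 2 and Fit1 summit 2, against 8.36% and 6.36%. In both it was TCAAGTG, which contains the E-box CAAGTG by its own letters. The Mef2 word was at rhea summit 2 alone (5.88%), against 9.50% and 6.46%. The promoter word DRE, TATCGATA, was at 0 of 17, which allows a share of up to 17.6%, against 1.59% and 7.84%. With 17 windows these shares are descriptions, and a word is not a bound site.

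Other genes of integrin adhesion, 31 in number, held IDR summits in 12 cases, against the 17.9% of all protein-coding genes. Their median window was 11300 bp and that of all protein-coding genes 4166 bp, so they are long genes too. Of 4 further integrin subunits only scb, the alpha-PS3 subunit, had summits. It held 4, the strongest at rank 188 and 157 bp upstream of its TSS (2R, 15248395 to 15248761), with replicate ranks 174, 199 and 182. Itgbn, ItgaPS4 and ItgaPS5 held none. This summit ranked above each of the 8 in if, mew and mys.

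Of 19 further adaptors and kinases 8 held summits, namely by, Zasp52, CAP, Actn, Lasp, Src64B, Rap1 and Pak. by, the tensin of the fly, had 3, of which the strongest (3R, 9533099 to 9533606, rank 80) lay 291 bp upstream of its TSS and ranked 107, 78 and 75. Src64B, a Src family kinase, had 5, led by an intronic one at rank 237 that was 164 bp from an internal Src64B TSS (3L, 4613056 to 4613484). CAP, a vinculin-binding adaptor, had 4, led by rank 476, and Zasp52, a protein of Z-discs and attachment sites, had 3, led by rank 1807, which was nearest to a TSS of tun at 8205 bp. The summit of Actn was nearest to a TSS of usp, at 64 bp, and that of Lasp lay 17 bp from a TSS that Lasp shares with CG43954. Replicate 1 had no summit within 100 bp of that of Lasp, and replicates 2 and 3 ranked it 1456 and 18627. Replicate ranks were 3262, 4669 and 3352 for Actn, 1780, 4272 and 1162 for Rap1 and 2500, 3424 and 2734 for Pak. Vinc (vinculin), Fak (focal adhesion kinase), ics, wech, p130CAS, Zyx, Tes, Src42A, Fit2, Git and RtGEF had none.

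Of 8 genes for matrix ligands 3 held a summit. LanB1, a laminin chain, had 2, led by rank 1209 (2L, 7813417 to 7813651) with replicate ranks 929, 1556 and 1405. LanA and wb, laminin alpha chains, had 1 each, at ranks 3191 and 2242. Their replicate ranks were 4801, 2918 and 2855 for LanA and 1743, 4221 and 2107 for wb. LanB2, Tig (tiggrin, a ligand of the receptor with if), Tsp (thrombospondin), Col4a1 and vkg had none. Without replicate 3, in the sense used for the members, 7 of the 31 kept a summit, without replicate 1 it was 8 and without replicate 2 it was 10. Over all protein-coding genes the shares under these filters were 12.7%, 12.8% and 13.2%, in the same order.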

How the data were processed

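Nau-bound chromatin of whole embryos was analysed from the authors' deposited region lists on dm6, 1 for each of 3 replicates, 1 pooled and 1 thresholded by IDR. Chromatin was sonicated, with fragments of 200 to 800 bp per the labels. The signal value of each region and the distance of its summit from the region start were taken as the authors deposited them. Per the deposited read-me files, each list was derived from the alignments and from 1 further file that all lists share, whose kind they do not state. Aligner, peak caller, IDR threshold and depth were not given in the sources used here. As the age label holds no plausible range, the source name was followed. The lists on dm3 were not used here.

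Genes and TSSs came from Ensembl release 115 (BDGP6.54), whose assembly is that of dm6, and no region ran past a chromosome end. Sequences came from the RefSeq copy of Release 6. Positions are 1-based. A gene window was the body plus 2000 bp upstream. A replicate region matched when its summit was the nearest within 100 bp. All 40 listed genes were matched, 1 through another symbol. The members and lists were chosen with earlier results of these data known. All 9 members are named, as are genes with the TSS nearest to a member summit and other adhesion genes with a summit. The count of repeated 30-base words was added after the data were seen. Genes and regions are not replicates, and no test was made. The assignment of summits was tested on simulated data. Python 3.11.15 with numpy 2.4.6, pandas 2.3.3 and matplotlib 3.10.9 was used.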

Additional observations from a re-analysis of the deposited data

How the results depend on the processing

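No paired analysis was possible because the series holds 1 group. The number of members with an IDR summit was between 5 and 7 under every alternative run, and the members without one were Ilk and parvin throughout, joined by stck with 1 kb upstream or none, by if and mys in the 1883 strongest regions and without replicate 2, by if without replicate 1 and by mys without replicate 3. Over all protein-coding genes the share with a summit was 10.1% for the gene body alone and 23.4% with 5 kb upstream. It was 11.2% in the 1883 strongest regions, and 12.8%, 13.2% and 12.7% without replicates 1, 2 and 3. Without a replicate here means that the IDR list was filtered by the other replicates, which can only lower a count. Summits in member windows numbered 7 in the 1883 strongest regions and ranged from 7 to 13 under this filter. Other adhesion genes with a summit numbered 7 in the 1883 strongest regions and 7 to 10 without a replicate. Member summits matched in all replicates numbered 9 with a match within 50 bp, in place of 15 within 100 bp. CAGCTG was at 1 member summit (5.88%) within 50 bp, against 8.73% of IDR windows, and at 6 (35.3%) within 250 bp, against 29.7%. Members with a summit among the 1883 strongest regions of a replicate averaged 4.33 ± 0.577 (SD, n = 3), against 6.67 ± 0.577 in the 3767 strongest. The share of all protein-coding genes was not computed for the 1883 strongest regions of a replicate, so this fall has no baseline. Of 14 mean ranks recomputed by overlap of at least 50% of the IDR region, 2 moved by more than the SD of the replicates, to 5240 for rhea summit 1 (450 by summit distance) and to 3520 for if summit 2 (4270). For rhea summit 1 the overlap rule passed over strong regions of replicates 1 and 2 that lie inside the IDR region but cover less than 50% of it. Without replicate 1 the mean rank of mew summit 3 was 3300 (8010 with it), that of rhea summit 2 was 1670 (2770) and that of Pax summit 1 was 1830 (2770). Depth is unknown and sets a limit on weak regions that cannot be given here.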
